A study of Mus musculus with 4 samples.

Results

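The genes described here encode the structural matrix of colon tumours: the collagens, the laminins and a set of matrix proteoglycans and glycoproteins. They were taken from a table of CAGE tag counts per gene by their symbols, namely Col followed by digits, the letter a and digits, Lama, Lamb or Lamc followed by a digit, and 17 named genes from Nid1 to Fbln2. The rule found 47 of 14979 genes, made up of 23 collagens, 9 laminins and 15 others. Vcan (versican) and Eln (elastin), which the rule also names, were not analysed here. No measured value entered the rule.

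CAGE (cap analysis of gene expression) reads the 5′ ends of capped RNA, so that each tag stands for the start of a transcript and levels do not scale with transcript length. The tumours grew in the colon of mice given azoxymethane, a carcinogen, and dextran sulfate sodium, which inflames the colon (AOM/DSS), and both groups carried this model. The MAdCAM1 group (taken as 2 mice, libraries MAdCAM1 1 and MAdCAM1 2) was treated with antibody to MAdCAM-1. Through MAdCAM-1, gut venules capture lymphocytes bearing the α4β7 integrin. The IgG group (taken as 2 mice, libraries IgG 1 and IgG 2) received a control IgG antibody. Strain, sex, age, antibody dose and treatment time are not given in the sources used here. How many tumours of a mouse went into a library is likewise not given. The study set tumours of mice treated against MAdCAM-1 beside tumours of control mice.

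Matrix proteins fall into 2 broad architectures. Fibrillar collagens are secreted by fibroblasts and related mesenchymal cells as triple-helical procollagens, trimmed outside the cell and packed into the banded fibres of the interstitial stroma. Basement membranes are thin sheets under epithelium and around vessels, nerves and muscle fibres, in which a laminin network and a collagen IV network are tied together by nidogens and by the heparan sulfate proteoglycan perlecan. In the colon the epithelium sits on such a sheet, and the crypts are wrapped in fibroblasts and smooth muscle. Stromal cells are the main source of fibrillar collagen and vessels are rich in collagen IV, whereas epithelial cells make laminins of their own.

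The libraries held 14850923 (MAdCAM1 1), 15895228 (MAdCAM1 2), 16891234 (IgG 1) and 15727936 tags (IgG 2). Levels are in CPM, each library's tags being scaled by its size and a TMM factor (0.962 to 1.04). Of the 47 matrix genes, 46 were among the 14331 genes with enough tags to be tested, and 32 had at least 1000 tags over the 4 libraries. Only Col24a1, a minor fibrillar collagen, was not tested, with 5 and 8 tags in the MAdCAM1 libraries and 2 and 10 tags in the IgG libraries. Log2 fold changes are MAdCAM1 over IgG and were estimated by edgeR's quasi-likelihood test over all 14331 genes, with Benjamini-Hochberg adjustment. The p-values weigh the group difference by how far mice of the same group differ.

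At an adjusted p threshold of 0.05 that test called 0 genes of the whole table (0% of 14331) and 0 of the 46 matrix genes. No matrix gene reached an unadjusted p under 0.05 either, a level reached by 5.09% of all genes in the higher direction and by 1.82% in the lower. DESeq2 called 242 genes of the table (1.69%), edgeR's exact test 161 (1.12%) and limma-voom 0 (0%), and each of these tests also called 0 of the 46 matrix genes. Matrix levels nevertheless varied widely over the 4 libraries. The median matrix gene spanned 3.31-fold from its lowest to its highest library, whereas the median of all genes was 1.48-fold. A span of at least 2-fold was seen in 38 of 46 matrix genes (82.6%) and in 26.3% of all genes.

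**Figure D1:**
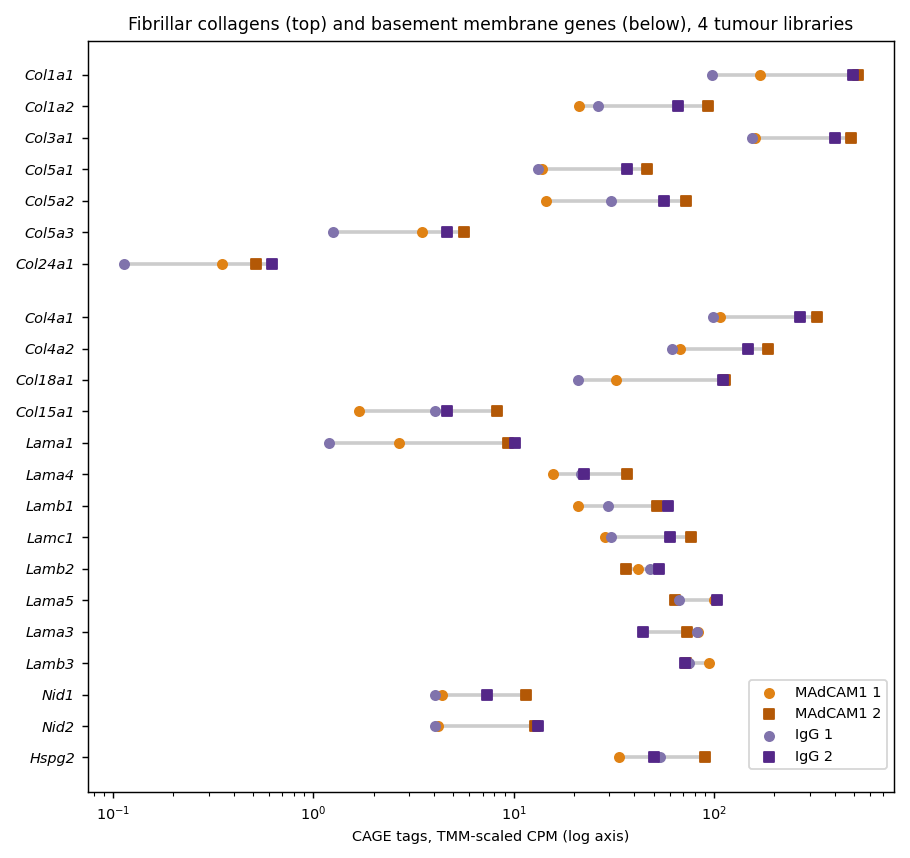
Levels of the 7 fibrillar collagens (top) and basement membrane genes (below) in each of the 4 libraries, as TMM-scaled CPM on a log axis; orange points are MAdCAM1 libraries and purple points IgG libraries, each 1 mouse, and grey lines join the lowest and highest library. Squares, the second mouse of each group, lie right of the circles for the fibrillar and collagen IV genes, whereas the points of Lamb3 and Lamb2 lie close together.

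The fibrillar collagens were led by Col1a1 and Col3a1. Col1a1 (ENSMUSG00000001506, chromosome 11: 94827050 to 94843868, plus strand, GRCm39) encodes the α1 chain of collagen I, the main fibre-forming collagen. It was found at 169 and 522 CPM in the MAdCAM1 libraries and at 97.9 and 495 CPM in the IgG libraries. Col3a1 (ENSMUSG00000026043, chromosome 1: 45350698 to 45395840, plus strand) forms the thin reticular fibres of distensible organs such as the gut. It had 159.8 and 483 CPM in MAdCAM1 libraries, against 155 and 400.0 CPM in IgG libraries. In both genes the libraries MAdCAM1 2 and IgG 2 stood high and the other library of each group low, so that the groups overlapped. In bulk tumours such as these, fewer cells of a type and less RNA per cell cannot be told apart.

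Col1a2 (ENSMUSG00000029661, chromosome 6: 4504814 to 4541555, plus strand) encodes the α2 chain that joins 2 α1 chains in the collagen I molecule. It was at 21.2 and 93.2 CPM in MAdCAM1 libraries and at 26.3 and 66.1 CPM in IgG libraries, the same order of high and low libraries. The ratio of Col1a1 to Col1a2 tags was 7.98 and 5.60 in MAdCAM1 libraries and 3.73 and 7.49 in IgG libraries, so the tags of these partner chains kept no fixed ratio. The ratio of Col1a1 to Col3a1 was 1.06 and 1.08 in MAdCAM1 libraries and 0.632 and 1.24 in IgG libraries. IgG 1 thus held less Col1a1 relative to both other chains than the remaining libraries did.

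Col3a1 and Col1a2 each shared their tag counts with another row of the table in all 4 libraries. Col3a1 had 2282 and 7457 tags in the MAdCAM1 libraries and 2721 and 6467 tags in the IgG libraries. The same 4 counts stood in the row of Gm54819, annotated by GENCODE as a miRNA at chromosome 1: 45350833 to 45350973 on the same strand, inside Col3a1 and 135 bases from its start. Col1a2 had 303 and 1440 tags in MAdCAM1 libraries and 462 and 1068 tags in IgG libraries. Those counts were repeated in the row of Gm43921, an unverified transcript (TEC) at chromosome 6: 4506087 to 4507878, also inside its host gene on the same strand. Tags of these loci therefore cannot be assigned to the collagen alone from the table. In all, 885 genes with at least 20 tags shared their 4 counts with another gene, and no 2 matrix genes shared theirs with each other. Where other matrix genes overlap genes of the table, these lie on the opposite strand, and whether tags were counted by strand is not stated in the sources used here.

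The promoter windows of Col3a1 and Col1a2 are shown as the sequence around their RefSeq start sites. Each holds 250 bases before the RefSeq start site and 50 from it onward, taken from the RefSeq promoter table (GRCm38.p6), and each had 1 exact match in GRCm39, whose coordinates are given. Col3a1 lies at chr1:45350448-45350747 (plus strand) and Col1a2 at chr6:4505368-4505667 (plus strand). Capitals mark matches, on either strand, to 3 promoter motifs, namely TATAAA for the TATA box, CCAAT for the CCAAT box and the letters GGGCGG for the GC box. Col1a1 was not among the matched entries.
Col3a1: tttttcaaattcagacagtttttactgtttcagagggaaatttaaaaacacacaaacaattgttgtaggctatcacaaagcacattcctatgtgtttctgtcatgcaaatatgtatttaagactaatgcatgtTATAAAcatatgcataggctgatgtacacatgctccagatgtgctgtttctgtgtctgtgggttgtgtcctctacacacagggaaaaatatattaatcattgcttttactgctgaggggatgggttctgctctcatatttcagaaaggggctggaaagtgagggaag
Col1a2: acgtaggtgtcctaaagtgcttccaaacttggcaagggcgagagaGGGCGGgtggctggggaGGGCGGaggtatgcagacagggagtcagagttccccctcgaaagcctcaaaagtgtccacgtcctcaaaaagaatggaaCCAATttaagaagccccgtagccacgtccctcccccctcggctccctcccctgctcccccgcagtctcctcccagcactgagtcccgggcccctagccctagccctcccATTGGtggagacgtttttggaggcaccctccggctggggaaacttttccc
The Col3a1 window has a GC content of 37.7% and holds TATAAA at 117 bases before the start. The Col1a2 window, with 61.0% GC, holds 2 GC boxes at 205 and 188 bases before the start, CCAAT at 109 bases before it and a reverse CCAAT at the start itself. Among all 32851 promoter windows of the table, TATAAA was present in 13.6%, CCAAT in 37.4% and GGGCGG in 35.7%. For 32 of the matrix genes 38 windows were found, and 4, 12 and 22 of these genes held the motifs in that order in at least 1 window. These counts are per gene and the shares above per window, so they are not directly comparable. The matches describe letters in a window and not bound sites. Positions of the CAGE tags were not examined, so no tag is placed at these starts. RefSeq and GENCODE starts can differ: for Col1a2 they are 4505618 and 4504814 on chromosome 6 (GRCm39).

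Collagen V is the minor fibrillar collagen built into collagen I fibres, where it limits their diameter. Its main chain Col5a1 had 13.9 and 46.4 CPM in MAdCAM1 libraries and 13.2 and 36.9 CPM in IgG libraries. Its partner Col5a2 had 14.4 and 72.5 CPM in MAdCAM1 libraries and 30.7 and 56.3 CPM in IgG libraries. Col5a3, the least abundant chain, had 3.50 and 5.63 CPM in MAdCAM1 libraries and 1.25 and 4.64 CPM in IgG libraries. All 3 collagen V genes followed the order of collagen I, with MAdCAM1 2 highest and IgG 2 next. MAdCAM1 2 was the highest library for all 6 tested fibrillar collagens, and the lowest was IgG 1 for 4 of them and MAdCAM1 1 for 2.

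Summed over the class, fibrillar collagens reached 382 and 1223 CPM in MAdCAM1 libraries and 324 and 1059.5 CPM in IgG libraries. The second library of each group thus lay several-fold above the first in both treatments. The median ratio of MAdCAM1 2 to MAdCAM1 1 over the 6 genes was 3.22, with a range of 1.61 to 5.03. The median ratio of IgG 2 to IgG 1 was 2.69, with a range of 1.83 to 5.05. Against this spread the group difference was small. The median log2 fold change was 0.24 over the 6 fibrillar collagens (range 0.00 to 0.64) and -0.00 over all genes tested. Col1a1 had a log2 fold change of 0.22 (SE 0.96, adjusted p = 0.978), Col3a1 of 0.21 (SE 0.72, adjusted p = 0.969) and Col1a2 of 0.31 (SE 0.85, adjusted p = 0.963), by edgeR's quasi-likelihood test. Col5a3 had the highest of the class, 0.64 (SE 0.74, adjusted p = 0.900), and turned to -0.03 without IgG 1. Without MAdCAM1 2 the class median was -0.81 and without IgG 1 it was -0.32, whereas it was 0.82 without MAdCAM1 1 and 1.16 without IgG 2. Col24a1 passed the filter in the first 3 of these fits, so their medians cover 7 genes, and that without IgG 2 covers 6. The direction for the fibrillar collagens thus rested on single mice.

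Among basement membrane genes Col4a1 had the highest level in each of the 4 libraries. Col4a1 (ENSMUSG00000031502, chromosome 8: 11248423 to 11362826, minus strand) encodes the chain that is present as a pair in the ubiquitous collagen IV protomer. It had 107 and 327 CPM in MAdCAM1 libraries, against 99.3 and 268 CPM in IgG libraries. Col4a2 (ENSMUSG00000031503, chromosome 8: 11362471 to 11499287, plus strand), its partner chain, had 67.7 and 185 CPM in MAdCAM1 libraries, against 61.8 and 148 CPM in IgG libraries. The high and low libraries were those of the fibrillar collagens. The ratio of the Col4a1 level to the Col4a2 level barely moved, at 1.57 and 1.76 in MAdCAM1 libraries and 1.61 and 1.81 in IgG libraries. Over the 4 libraries this ratio spanned 1.15-fold, whereas the ratio of the collagen I chains spanned 2.14-fold.

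The genes Col4a1 and Col4a2 lie head to head on opposite strands, and their annotated spans overlap at the 5′ ends. Their promoter windows are shown because they overlap by 78 bases, with the RefSeq start sites 21 bases apart on opposite strands. Col4a1 lies at chr8:11362777-11363076 (minus strand) and Col4a2 at chr8:11362555-11362854 (plus strand), both on GRCm39 by exact match. Each is written in the direction of its own gene, with the same 3 motifs in capitals.
Col4a1: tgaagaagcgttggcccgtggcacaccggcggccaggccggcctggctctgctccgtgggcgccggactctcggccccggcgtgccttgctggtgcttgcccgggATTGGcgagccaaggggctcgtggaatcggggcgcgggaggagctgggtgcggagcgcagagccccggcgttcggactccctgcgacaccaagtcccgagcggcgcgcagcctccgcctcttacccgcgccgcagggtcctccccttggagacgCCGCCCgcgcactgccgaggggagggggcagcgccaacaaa
Col4a2: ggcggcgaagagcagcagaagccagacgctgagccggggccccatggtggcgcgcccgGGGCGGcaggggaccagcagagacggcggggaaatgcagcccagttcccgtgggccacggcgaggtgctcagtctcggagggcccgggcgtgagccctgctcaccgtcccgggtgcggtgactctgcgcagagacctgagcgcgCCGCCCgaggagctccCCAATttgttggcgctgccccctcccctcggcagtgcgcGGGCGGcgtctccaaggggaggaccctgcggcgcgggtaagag
The Col4a1 window holds a reverse CCAAT at 145 bases before the start and a GC box just after it. The Col4a2 window holds CCAAT at 32 bases before the start, GC boxes at 192 and 48 bases before it and another GC box just after it. The GC box just after the start is the same stretch of bases in both windows. Neither window holds TATAAA, and their GC contents were 74.0% and 73.7%. As the start sites lie so close, assigning a tag to either chain depends on its strand.

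Several other basement membrane genes followed collagen IV. Col18a1, whose collagen XVIII carries the endostatin fragment, had 32.4 and 114 CPM in MAdCAM1 libraries and 20.9 and 111 CPM in IgG libraries. Lamc1, the γ1 chain shared by most laminins, had 28.5 and 77.1 CPM in MAdCAM1 libraries and 30.6 and 60.5 CPM in IgG libraries. Lamb1, the β1 chain, had 20.9 and 51.8 CPM in MAdCAM1 libraries and 29.7 and 58.7 CPM in IgG libraries. In these genes MAdCAM1 2 and IgG 2 again lay above both other libraries. Lama1, the α1 chain of the laminin of early development, was scarcer, at 2.66 and 9.32 CPM in MAdCAM1 libraries and 1.20 and 10.2 CPM in IgG libraries. The nidogens, which link laminin to collagen IV, summed to 8.61 and 24.3 CPM in MAdCAM1 libraries and to 8.08 and 20.5 CPM in IgG libraries. Nid1 and Nid2 each had the same order of libraries as their sum, except that Nid2 was at 12.8 CPM in MAdCAM1 2 and 13.2 CPM in IgG 2.

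A further 3 basement membrane genes were high in MAdCAM1 2 alone. Hspg2, which encodes perlecan, had 33.8 and 90.4 CPM in MAdCAM1 libraries and 53.6 and 49.9 CPM in IgG libraries. Lama4, the α4 chain found in vessel laminins, had 15.8 and 36.8 CPM in MAdCAM1 libraries and 21.7 and 22.3 CPM in IgG libraries. Col15a1, whose collagen XV lies close to the basement membranes of muscle and vessels, had 1.68 and 8.29 CPM in MAdCAM1 libraries and 4.04 and 4.64 CPM in IgG libraries. In all 3 the IgG libraries lay close together and between the MAdCAM1 libraries.

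Lama3 and Lamb3, which encode the α3 and β3 chains of laminin that epithelial cells deposit and that anchors them through hemidesmosomes, behaved differently. Lama3 had 83.7 and 73.6 CPM in MAdCAM1 libraries and 82.8 and 44.2 CPM in IgG libraries. Lamb3 had 94.1 and 72.3 CPM in MAdCAM1 libraries and 75.4 and 71.7 CPM in IgG libraries. From lowest to highest library Lamb3 spanned 1.31-fold and Lama3 1.89-fold, whereas Col4a1 spanned 3.29-fold and Col4a2 3.00-fold. The ratio of the Lama3 level to the Lamb3 level was 0.889 and 1.02 in MAdCAM1 libraries and 1.10 and 0.616 in IgG libraries, lowest in IgG 2. Lama5, the α5 chain of the laminins under mature colon epithelium (ENSMUSG00000015647, chromosome 2: 179818166 to 179867712, minus strand), had 100.4 and 64.2 CPM in MAdCAM1 libraries and 66.7 and 103 CPM in IgG libraries.

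Lamb2 (ENSMUSG00000052911, chromosome 9: 108356935 to 108367729, plus strand), the β2 chain that can replace β1 beside α5, was the basement membrane gene whose values separated the groups. It had 41.5 and 36.2 CPM in MAdCAM1 libraries, against 47.9 and 52.9 CPM in IgG libraries, the lower values in both tumours of antibody-treated mice. The log2 fold change was -0.38 (SE 0.16), with an unadjusted p of 0.072 and an adjusted p of 0.741 by edgeR's quasi-likelihood test and an adjusted p of 0.835 by DESeq2, so the difference did not pass the threshold. The ratio of the Lamb1 level to the Lamb2 level was 0.503 and 1.43 in MAdCAM1 libraries and 0.620 and 1.11 in IgG libraries. Lamb1 exceeded Lamb2 in MAdCAM1 2 and IgG 2 only.

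The promoter windows of Lamb2 and Lama5 are shown as those of basement membrane genes that did not follow collagen IV. Lamb2 lies at chr9:108356811-108357110 (plus strand) and Lama5 at chr2:179867603-179867902 (minus strand), on GRCm39 by exact match, with the same motifs in capitals.
Lamb2: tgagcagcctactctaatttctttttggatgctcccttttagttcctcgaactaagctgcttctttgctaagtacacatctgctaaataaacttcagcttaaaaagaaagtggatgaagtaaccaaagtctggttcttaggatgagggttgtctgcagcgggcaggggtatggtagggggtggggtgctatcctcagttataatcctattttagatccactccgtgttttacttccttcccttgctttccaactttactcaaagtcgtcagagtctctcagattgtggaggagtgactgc
Lama5: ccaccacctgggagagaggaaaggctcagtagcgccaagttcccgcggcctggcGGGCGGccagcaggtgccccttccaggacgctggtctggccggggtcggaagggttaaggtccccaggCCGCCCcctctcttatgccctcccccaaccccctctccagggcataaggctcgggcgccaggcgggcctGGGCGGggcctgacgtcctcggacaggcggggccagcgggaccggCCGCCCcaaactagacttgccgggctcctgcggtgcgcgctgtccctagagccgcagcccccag
None of the 3 motifs is present in the Lamb2 window, which has 44.0% GC. The Lama5 window, with 72.7% GC, holds 4 GC boxes, the nearest at 14 bases before the start, and neither of the other motifs.

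Set side by side, both architectures differed in how far their members varied over the 4 libraries. Fibrillar collagens spanned a median of 4.45-fold from lowest to highest library (range 3.12 to 5.33), and all 6 spanned at least 2-fold. Basement membrane genes spanned a median of 2.76-fold and at most 8.54-fold, with 11 of 16 at 2-fold or more. The summed basement membrane level was 709 and 1232 CPM in MAdCAM1 libraries and 667 and 1091 CPM in IgG libraries. The ratio of the summed fibrillar level to the summed basement membrane level was therefore 0.539 and 0.993 in MAdCAM1 libraries and 0.487 and 0.971 in IgG libraries. MAdCAM1 2 and IgG 2 had nearly as many fibrillar collagen tags as basement membrane tags, and the other libraries had far fewer. Within the basement membrane class the balance moved further: the ratio of collagen IV tags to the sum of Lama3 and Lamb3 was 0.981 and 3.51 in MAdCAM1 libraries and 1.02 and 3.59 in IgG libraries. The within-treatment gaps in these sums exceeded the gaps between the treatments in each case. With 2 mice a group, a two-sided exact permutation test of either ratio cannot go below p = 0.333, so none was made.

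**Figure D2:**
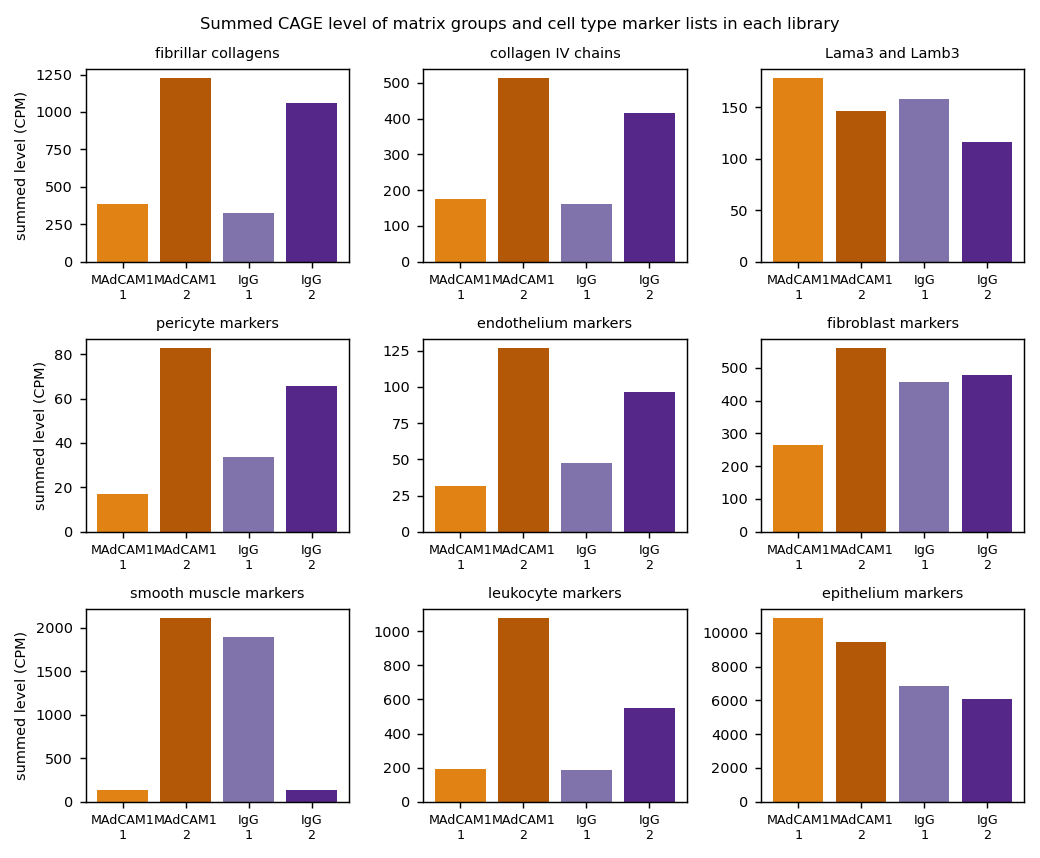
Summed TMM-scaled CPM of the fibrillar collagens, the collagen IV chains, Lama3 with Lamb3 and other gene groups in each library, with MAdCAM1 libraries left of IgG libraries. Fibrillar collagens and collagen IV were high in MAdCAM1 2 and IgG 2, whereas Lama3 and Lamb3 together lay between 116 and 178 CPM in all 4 libraries.

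Over the 16 basement membrane genes the median log2 fold change was 0.19, with 12 estimates above 0 and 4 below and a range of -0.38 to 0.48. Col4a1 had 0.24 (SE 0.74, adjusted p = 0.965), Col4a2 0.27 (SE 0.67, adjusted p = 0.960) and Col18a1 0.15 (SE 1.0, adjusted p = 0.989), by edgeR's quasi-likelihood test. The epithelial laminin chains had smaller errors: Lama3 had 0.31 (SE 0.34, adjusted p = 0.892) and Lamb3 0.18 (SE 0.18, adjusted p = 0.879), in the same edgeR fit. Lama5 had -0.05 (SE 0.33, adjusted p = 0.989 by edgeR). The class median was 0.73 without MAdCAM1 1, -0.62 without MAdCAM1 2, -0.22 without IgG 1 and 0.30 without IgG 2.

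Beaded and network collagens form microfibrils, anchoring fibrils and open meshes. Collagen VI, whose beaded microfibrils border basement membranes, summed to 38.6 and 151 CPM in MAdCAM1 libraries and to 39.6 and 126 CPM in IgG libraries. Its chain Col6a1 had 14.9 and 64.1 CPM in MAdCAM1 libraries and 17.4 and 47.3 CPM in IgG libraries. Col6a2 had 7.77 and 40.9 CPM in MAdCAM1 libraries and 6.26 and 29.2 CPM in IgG libraries. Both chains followed the order of the fibrillar collagens, and Col6a3 did so with IgG 2 slightly on top, at 15.9 and 45.6 CPM in MAdCAM1 libraries and 16.0 and 49.8 CPM in IgG libraries. Col6a4, an alternative chain, differed most between the control mice, with 6.30 and 15.7 CPM in MAdCAM1 libraries and 1.71 and 30.4 CPM in IgG libraries. Col7a1, which makes the anchoring fibrils that fasten epithelial basement membranes to the stroma, was the gene for which IgG 1 stood highest. It had 1.96 and 4.14 CPM in MAdCAM1 libraries and 12.4 and 3.15 CPM in IgG libraries. Its log2 fold change of -1.35 (SE 0.82, adjusted p = 0.804 by edgeR) rested on that library, since it was -0.06 without IgG 1. Col8a1, a short-chain network collagen of vessels, stayed at 0.490 and 2.59 CPM in MAdCAM1 libraries and 1.20 and 0.990 CPM in IgG libraries.

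Fibril-associated collagens sit on the surface of fibres and link them to other molecules. Col12a1 had 13.7 and 63.4 CPM in MAdCAM1 libraries and 13.4 and 32.2 CPM in IgG libraries. Its log2 fold change of 0.76 (SE 0.86, adjusted p = 0.897 by edgeR) was the highest among the matrix genes, and it was -0.73 without MAdCAM1 2. Col16a1 had 16.1 and 31.5 CPM in MAdCAM1 libraries and 17.4 and 23.4 CPM in IgG libraries, and Col14a1 had 1.82 and 7.71 CPM in MAdCAM1 libraries and 4.04 and 3.96 CPM in IgG libraries. In all 3 genes MAdCAM1 2 was the highest library. The collagen IX genes, best known from cartilage, went the other way between the MAdCAM1 mice. Col9a3 had 31.3 and 19.7 CPM in MAdCAM1 libraries and 30.2 and 32.0 CPM in IgG libraries (log2 fold change -0.29, SE 0.27, adjusted p = 0.874 by edgeR). Col9a2 had 5.46 and 2.27 CPM in MAdCAM1 libraries and 4.50 and 7.55 CPM in IgG libraries (log2 fold change -0.64, SE 0.58, adjusted p = 0.865 by edgeR). MAdCAM1 2 was the lowest library for both.

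Col23a1, a collagen anchored in the cell membrane and the only one of its kind in the set, was the second gene whose values did not overlap. It had 4.06 and 6.15 CPM in MAdCAM1 libraries, against 6.20 and 10.4 CPM in IgG libraries. The gap between the nearest libraries of the groups was thus 6.15 against 6.20 CPM. The log2 fold change was -0.70 (SE 0.42, adjusted p = 0.796 by edgeR), and it lay between -1.04 and -0.28 with each library left out. Values without overlap fix that sign in advance.

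The small leucine-rich proteoglycans bind collagen fibres and regulate their assembly. Decorin (Dcn) had 58.4 and 355 CPM in MAdCAM1 libraries and 105 and 153 CPM in IgG libraries. Biglycan (Bgn) had 24.8 and 156 CPM in MAdCAM1 libraries and 26.5 and 81.8 CPM in IgG libraries. Lumican (Lum) had 1.26 and 10.7 CPM in MAdCAM1 libraries and 8.88 and 1.86 CPM in IgG libraries. MAdCAM1 2 was the highest library for all 3 and MAdCAM1 1 the lowest, with gaps between these mice of 6.08 to 8.48-fold, and the IgG libraries fell between them. Lumican alone was higher in IgG 1 than in IgG 2. The log2 fold changes were 0.68 for Dcn (SE 0.88, adjusted p = 0.913) and 0.74 for Bgn (SE 1.03, adjusted p = 0.918) by edgeR, and without MAdCAM1 2 they were -1.14 and -1.13.

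Elastic fibre genes encode the fibrillin scaffold and the fibulins that bind it. Fibrillin-1 (Fbn1) had 3.85 and 30.0 CPM in MAdCAM1 libraries and 9.96 and 14.2 CPM in IgG libraries. Fibulin-2 (Fbln2) had 1.26 and 11.3 CPM in MAdCAM1 libraries and 5.86 and 2.78 CPM in IgG libraries. Fibulin-1 (Fbln1) was more abundant and more even, at 62.0 and 84.8 CPM in MAdCAM1 libraries and 70.3 and 42.9 CPM in IgG libraries. MAdCAM1 2 stood highest for all 3 genes. The log2 fold change of Fbln1 was 0.38 (SE 0.32, adjusted p = 0.857 by edgeR) and remained above 0 with each library left out, from 0.06 to 0.76.

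Adhesive and matricellular proteins connect the fibres to cell-surface receptors or adjust that contact. Fibronectin (Fn1), a ligand of α5β1 integrin, had 195 and 403 CPM in MAdCAM1 libraries and 279.7 and 270.3 CPM in IgG libraries, with the IgG mice alike and the MAdCAM1 mice on either side of them. Sparc, a collagen-binding glycoprotein, had 18.3 and 71.4 CPM in MAdCAM1 libraries and 22.6 and 51.8 CPM in IgG libraries and followed the fibrillar collagens. Periostin (Postn), made by activated stromal cells, had 9.66 and 118 CPM in MAdCAM1 libraries and 59.5 and 24.7 CPM in IgG libraries. Its ratio to Col3a1 was 0.0605 and 0.245 in MAdCAM1 libraries and 0.384 and 0.0617 in IgG libraries, so that IgG 1 was rich in periostin for its collagen and IgG 2 poor. Tenascin-C (Tnc) had 15.4 and 36.5 CPM in MAdCAM1 libraries and 26.5 and 22.7 CPM in IgG libraries. The thrombospondins did not join this pattern. Thbs1, an activator of latent TGF-β, had 113 and 98.0 CPM in MAdCAM1 libraries and 84.9 and 195 CPM in IgG libraries. Thbs2 had 67.2 and 46.1 CPM in MAdCAM1 libraries and 64.5 and 30.1 CPM in IgG libraries, lower in the second library of both groups. The log2 fold changes were 0.12 for Fn1 (SE 0.38, adjusted p = 0.967), 0.60 for Postn (SE 1.21, adjusted p = 0.950) and -0.41 for Thbs1 (SE 0.44, adjusted p = 0.884), by edgeR.

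Over all matrix genes the gaps between mice of the same treatment stood apart from those of the table. The level in MAdCAM1 2 was at least 2-fold that in MAdCAM1 1 for 33 of 46 matrix genes, compared with 8.68% of all genes. The level in IgG 2 was at least 2-fold that in IgG 1 for 18 of 46 matrix genes, compared with 5.37% of all genes. Both held for 16 of the 46 and for 1.88% of all genes. The median ratio over the matrix genes was 2.80 between the MAdCAM1 mice and 1.68 between the IgG mice, whereas over all genes these medians were 0.980 and 0.999. The ratios describe these mice, and no test was made of them. Whether same-numbered mice of the groups share a batch or day is not given in the sources used here.

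**Figure D3:**
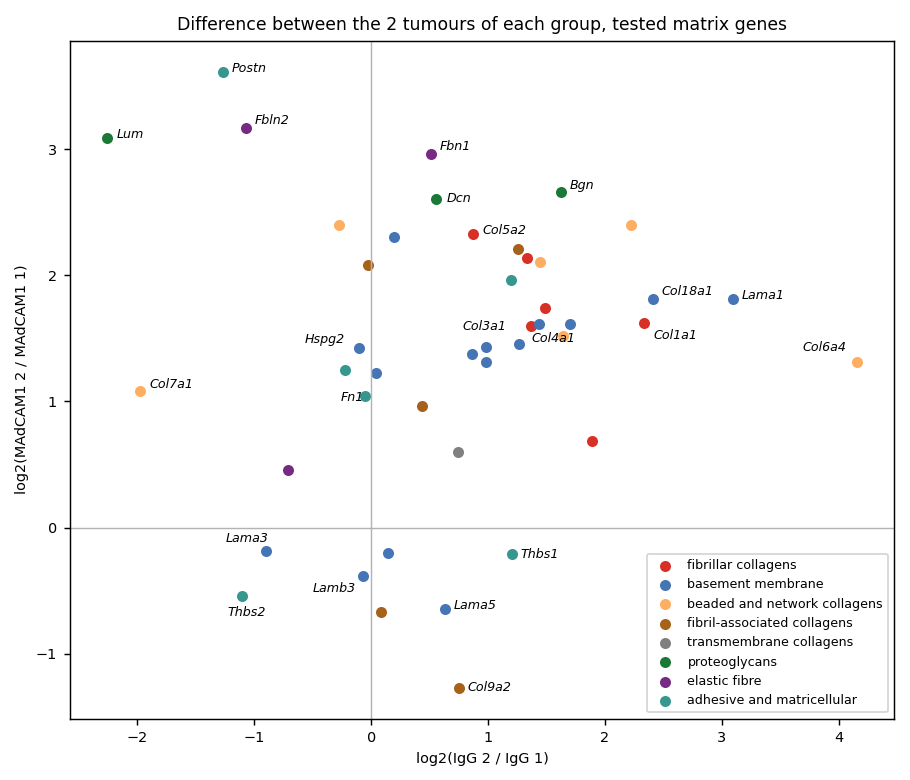
Log2 ratio of MAdCAM1 2 to MAdCAM1 1 (vertical) against log2 ratio of IgG 2 to IgG 1 (horizontal) for tested matrix genes, coloured by class. The 6 fibrillar collagens lie above 0 on both axes, whereas Lama3 and Lamb3 lie below 0 on the MAdCAM1 axis. Postn, Lum, Fbln2 and Col7a1 are among the genes above 0 on the MAdCAM1 axis and below 0 on the IgG axis.

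Markers of other cells moved with these orders of libraries, and their part in the results was not tested. The 7 endothelial markers in the table (of 10 listed; Tek, Emcn and Flt1 were not among the genes analysed) summed to 31.8 and 127 CPM in MAdCAM1 libraries and to 47.1 and 96.2 CPM in IgG libraries. The 4 pericyte markers (of 6; Cspg4 and Kcnj8 were not among the genes analysed) summed to 17.1 and 82.6 CPM in MAdCAM1 libraries and to 33.7 and 65.8 CPM in IgG libraries. MAdCAM1 2 and IgG 2 were thus the higher libraries for the sums of both lists, as for fibrillar collagen and collagen IV. The pericyte markers were not uniform. Rgs5 had 7.21 and 44.5 CPM in MAdCAM1 libraries and 12.3 and 35.7 CPM in IgG libraries. Notch3 had 1.05 and 5.44 CPM in MAdCAM1 libraries and 10.8 and 3.34 CPM in IgG libraries, and Abcc9 had 1.19 and 7.38 CPM in MAdCAM1 libraries and 5.01 and 3.90 CPM in IgG libraries, so both were higher in IgG 1 than in IgG 2. Plvap, an endothelial marker, had 10.7 and 46.9 CPM in MAdCAM1 libraries and 14.9 and 33.6 CPM in IgG libraries. The 8 leukocyte markers had the same high libraries in their sums, with 191 and 1075 CPM in MAdCAM1 libraries and 186 and 547 CPM in IgG libraries. Not every leukocyte marker did: Cd79a, of B cells, had 1.12 and 60.3 CPM in MAdCAM1 libraries and 8.76 and 2.23 CPM in IgG libraries, and Jchain, of plasma cells, had 42.7 and 449.6 CPM in MAdCAM1 libraries and 8.14 and 35.4 CPM in IgG libraries.

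Smooth muscle markers had another order. The 8 in the table (of 11; Myh11, Lmod1 and Myocd were not among the genes analysed) summed to 139.6 and 2104 CPM in MAdCAM1 libraries and to 1888 and 130.4 CPM in IgG libraries. Desmin (Des), an intermediate filament of muscle, had 18.4 and 403 CPM in MAdCAM1 libraries and 327 and 2.10 CPM in IgG libraries. Acta2, smooth muscle actin, had 37.5 and 509 CPM in MAdCAM1 libraries and 483 and 62.3 CPM in IgG libraries. MAdCAM1 2 and IgG 1 were the libraries with high muscle transcripts, whereas the fibrillar collagens were low in IgG 1. Postn, Lum and Fbln2 were likewise highest in MAdCAM1 2 and next highest in IgG 1. Fn1, Hspg2, Tnc, Fbln1, Col14a1 and Col8a1 had this order too, with IgG values closer together. The 11 fibroblast markers in the table (of 17; Fap, Lrrc15, Twist1, Twist2, Prrx1 and Mfap5 were not among the genes analysed) summed to 263 and 559 CPM in MAdCAM1 libraries and to 458 and 477 CPM in IgG libraries. Of these, Pi16 was at 0 in at least 1 library, and Vim had 151 and 186 CPM in MAdCAM1 libraries and 212 and 309 CPM in IgG libraries. Gsn had 55.5 and 128 CPM in MAdCAM1 libraries and 96.5 and 35.3 CPM in IgG libraries, and Mfap4 had 0.630 and 14.8 CPM in MAdCAM1 libraries and 5.01 and 2.91 CPM in IgG libraries. The sums of the IgG libraries were close, but between these mice Vim was higher in IgG 2, whereas Gsn, Mfap4 and Dpt were higher in IgG 1.

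Among the marker lists, epithelium was the only one whose sum separated the treatments. All 8 were in the table and 7 had MAdCAM1 values above both IgG values, beside 19.7% of all genes, with sums of 10854 and 9472 CPM in MAdCAM1 libraries and 6851 and 6095 CPM in IgG libraries. Lama3 and Lamb3 together had 178 and 146 CPM in MAdCAM1 libraries and 158 and 116 CPM in IgG libraries, so their sum's highest and lowest libraries were the same as those of the epithelial markers, but the groups overlapped. DESeq2 called Krt20 (adjusted p = 4.1e-05), Cldn7 (0.00127), Vil1 (0.022) and Epcam (0.0394), and the exact test of edgeR called Krt20 among them (adjusted p = 0.00354). The quasi-likelihood test and limma-voom called none. Uchl1, the only nerve and glia marker of 6 in the table, had 3.99 and 6.99 CPM in MAdCAM1 libraries and 7.85 and 3.46 CPM in IgG libraries.

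The comparison of the treatments over the whole set rests on these mouse-to-mouse gaps. Of the 46 matrix genes, 0 had both MAdCAM1 values above both IgG values, beside 19.7% of all genes, and 2 had both below, Lamb2 and Col23a1, beside 18.7% of all genes. The other 44 overlapped. Estimates were above 0 for 35 genes and below 0 for 11, with a median log2 fold change of 0.22 over the matrix genes and -0.00 over all genes. Their SE had a median of 0.75 and was at most 1.34, and the lowest adjusted p was 0.741 (edgeR). The fold change exceeded its SE for 6 genes, namely Lamb2, Col7a1, Fbln1, Col9a2, Col9a3 and Col23a1, and exceeded 2 SE for Lamb2 alone. For the remaining genes it lay within 1 SE. With MAdCAM1 2 left out, the estimate changed sign for 31 of the 46 genes. Sign changes were not counted over all genes, so this number cannot be set against the table.

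**Figure D4:**
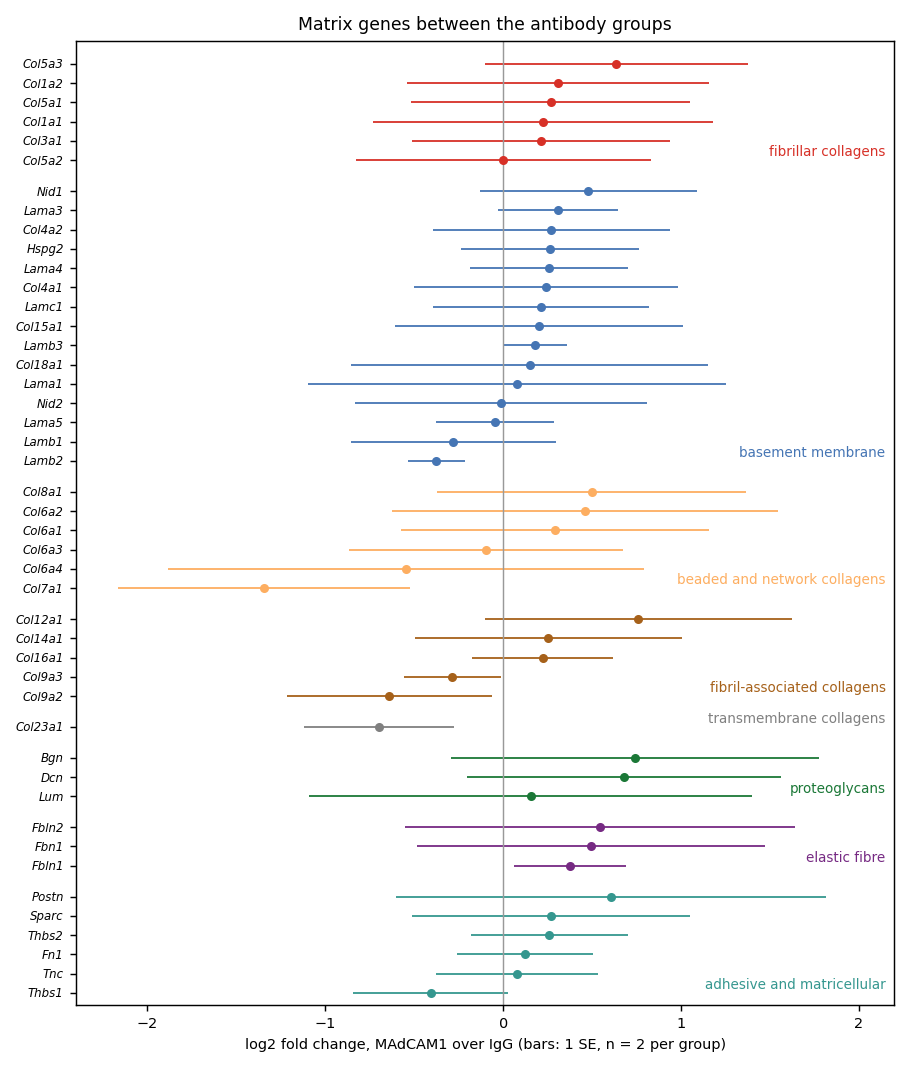
Log2 fold change (MAdCAM1 over IgG) of tested matrix genes from edgeR's quasi-likelihood fit, with bars of 1 SE, grouped by class; the vertical line is 0. Estimates run from -1.35 (Col7a1) to 0.76 (Col12a1), and the bars of 6 genes stay clear of 0.

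The enzymes and chaperones that fold, hydroxylate and cross-link collagen showed no called difference between the treatments. Of 30 listed genes 23 were tested, of which edgeR's quasi-likelihood test called 0, with 2 higher and 3 lower without overlap (19.7% and 18.7% of all genes), 18 overlapping and a median log2 fold change of 0.09. P4hb, the β subunit of prolyl 4-hydroxylase, had 432 and 469 CPM in MAdCAM1 libraries and 410.1 and 369 CPM in IgG libraries. Mia3, which loads procollagen for export, had 74.2 and 90.8 CPM in MAdCAM1 libraries and 67.0 and 52.9 CPM in IgG libraries. The lower genes were Bmp1, the procollagen C-proteinase, the hydroxylase subunit P4ha2 and the prolyl hydroxylase complex member P3h4. Bmp1 had 33.4 and 45.9 CPM in MAdCAM1 libraries and 46.4 and 53.3 CPM in IgG libraries. The list summed to 1181 and 1498 CPM in MAdCAM1 libraries and to 1208 and 1296 CPM in IgG libraries, a narrower span over libraries than that of the fibrillar collagens they act on. Ppib, a prolyl isomerase of the collagen folding complex, stayed at 375 and 377 CPM in MAdCAM1 libraries and 369.7 and 398 CPM in IgG libraries. P4hb and Ppib together made up most of the list's sum in each library, so its span mainly describes these genes.

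Receptors for matrix were likewise mostly mixed between the groups. Of 24 listed genes 20 were tested and 0 called by edgeR's quasi-likelihood test, with 1 higher and 2 lower without overlap (19.7% and 18.7% of all genes), 17 overlapping and a median log2 fold change of 0.03. Bcam, the cell-surface receptor of the laminin α5 chain, had 19.5 and 24.3 CPM in MAdCAM1 libraries, against 52.4 and 60.7 CPM in IgG libraries. Its log2 fold change was -1.36 (SE 0.19), with an adjusted p of 0.640 by edgeR's quasi-likelihood test and 0.615 by limma-voom. The adjusted p was 0.000219 by DESeq2 and 0.00381 by edgeR's exact test, so the call depended on the test. Its ligand chain Lama5 overlapped between the groups. Itgb6, the β chain of the epithelial αvβ6 integrin, had 44.7 and 35.5 CPM in MAdCAM1 libraries, against 26.9 and 15.7 CPM in IgG libraries. Ddr1, a collagen receptor kinase of epithelium, had 86.8 and 61.8 CPM in MAdCAM1 libraries, against 99.7 and 102 CPM in IgG libraries. Rpsa and Sdc4, the receptors of highest level that were named, overlapped, with Rpsa at 868 and 812 CPM in MAdCAM1 libraries and 895 and 732 CPM in IgG libraries.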

How the data were processed

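Tumour RNA, taken to be that of 4 mice, was measured by CAGE. Per the labels' protocols, cDNA primed at random was cap-trapped, read as single ends of 75 nt and mapped to GRCm39 with BWA 0.7.17, then HISAT2 2.0.5. Tags were clustered with RECLU, dropping clusters under 0.1 CPM or over 200 bp. The authors deposited raw tag counts per gene. How clusters were summed to genes, and whether by strand, is not stated in the sources used here.

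Counts were fitted in edgeR 4.0.16 (R 4.3.3) with filterByExpr, TMM scaling and the robust quasi-likelihood F test of MAdCAM1 over IgG, adjusted over 14331 genes by the Benjamini-Hochberg method at 0.05. Pipelines were tested on simulated data. The common biological coefficient of variation was 0.322. A single tag equals 0.0592 to 0.0673 CPM before TMM scaling. The series' design text mentions 2 mice, which was read here as 2 mice per group. The labelled replicates were taken as 1 library from each, although no label names a mouse.

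The members, gene lists and the rule for named genes were chosen with earlier results of these data known. The rule took all tested fibrillar and basement membrane genes, up to 6 of highest mean per other class, 5 per direction with the smallest p and genes with repeated counts. In each related list it took the 4 genes with the smallest p and the 2 highest, of which some are printed. A basement membrane gene that enters the counts and sums is not reported here. Alternatives were RLE or library size scaling, other filters, each library left out, a replicate block, identical rows counted once, DESeq2 1.42.0, limma-voom (limma 3.58.1) and the exact test. Gene positions are from GENCODE M39. No sample column was left out.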

Additional observations from a re-analysis of the deposited data

How the results depend on the processing

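No alternative called a matrix gene. The table's calls were 242 with DESeq2, 161 with the exact test and 0 elsewhere. The number of matrix genes without overlap between the groups was 3 of 46 with library size scaling, all 3 lower. Of the 14331 genes tested with that scaling, 1950 lay higher and 4105 lower without overlap. With a library left out, the number was 36 of 47 (without MAdCAM1 1), 28 of 47 (without MAdCAM1 2), 16 of 47 (without IgG 1) and 18 of 46 (without IgG 2). The shares of all genes were 70.2%, 66.4%, 73.9% and 67.0% in that order. A group left with 1 mouse was assumed to vary like the other. The fibrillar median log2 fold change ran from -0.81 (without MAdCAM1 2) to 1.16 (without IgG 2), with -0.32 and 0.82 in between. It included Col24a1 in these fits except the one without IgG 2. The basement membrane median ran from -0.62 (without MAdCAM1 2) to 0.73 (without MAdCAM1 1), with -0.22 and 0.30 in between. The estimate changed sign for 41 of the 46 genes with at least 1 library left out, a count not made over all genes. Their ranges were -1.13 to 1.78 for Bgn, -0.73 to 1.52 for Col12a1, -1.03 to 1.81 for Col18a1, -0.81 to 1.82 for Col1a1, -1.12 to 1.13 for Col1a2, -0.80 to 1.05 for Col3a1, -0.78 to 1.13 for Col4a1, -0.63 to 1.04 for Col4a2, -0.034 to 1.86 for Col5a3 and -0.66 to 0.0091 for Col9a3. They were -1.14 to 1.46 for Dcn, -0.49 to 0.55 for Fn1, -0.080 to 0.81 for Lama3, -0.40 to 0.29 for Lama5, -0.026 to 0.35 for Lamb3, -2.12 to 1.49 for Postn and -0.90 to 0.31 for Thbs1. Postn was -0.16 with limma-voom and -0.15 with the replicate block; the cause was not tested. With the replicate block 0 genes and 0 matrix genes were called, and the fibrillar and basement membrane medians were 0.18 and 0.13. Over all 14331 genes tested, same-numbered mice deviated with a correlation of -0.16, and no source used here ties the numbers to a shared batch. Of the 46 matrix genes, however, 16 were at least 2-fold higher in the second mouse of both groups, compared with 1.88% of all genes. A block with crossed numbers, chosen after seeing the data, also called 0 genes and 0 matrix genes. Lamb2 and Col23a1 kept a negative estimate under each alternative other than the crossed block, for which no gene estimates are given. The values of both genes do not overlap between the groups, which fixes that sign in advance when a library is left out. Their kept sign is therefore no separate support.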
